A study of Homo sapiens with 18 samples.

Results

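The MEIS, PBX and PKNOX genes encode TALE homeodomain proteins, a class of transcription factors whose DNA-binding domain carries extra residues in a loop between its helices. The 7 genes described here, MEIS1, MEIS2, MEIS3, PBX2, PBX3, PBX4 and PKNOX1, were taken as a list of names and looked up by Ensembl ID among the 58037 IDs of the count table, where all 7 were found. MEIS and PKNOX proteins bind PBX proteins, and the pairs join HOX proteins on DNA, which sharpens the choice of binding site and holds the complex in the nucleus. In acute myeloid leukemia (AML) with an MLL rearrangement or mutant NPM1, MEIS1 and PBX3 are best known as partners of HOXA9, and MEIS1 is an established target of the MLL fusion proteins. PKNOX1, also known as PREP1, uses the same PBX partners as the MEIS proteins and acts as a tumor suppressor in mice. MEIS2 and PBX2 are widely used paralogs, MEIS3 is known mostly from hindbrain patterning in frog embryos, and PBX4 in mice is expressed mainly in the testis.

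RNA-Seq was performed on 3 human AML cell lines after 16 h of culture with the Menin inhibitor SNDX-50469, the compound that the labels call VTP50469, with the BET protein inhibitor OTX015, with both, or with neither. Menin holds MLL and its fusion proteins at their target genes, and SNDX-50469 blocks that contact, whereas OTX015 displaces BET proteins from acetylated chromatin. MOLM13 cells, which carry the MLL-AF9 fusion, received 500 nM SNDX-50469, 500 nM OTX015, both agents at 500 nM, or no agent, with 2 libraries in each group. MV4-11 cells, which are MLL-rearranged, were given SNDX-50469 at 1000 nM or left untreated, again in pairs of libraries. OCI-AML3 cells, which carry mutant NPM1, were given SNDX-50469 at 500 nM or left untreated, in 3 libraries per group. Each line stands as a single model of its genotype. The 18 libraries of the 8 groups held 19320216 to 23684811 counts in MOLM13, 20730486 to 30090830 in MV4-11 and 49881047 to 59711884 in OCI-AML3, so values of low genes were most precise in OCI-AML3. Libraries of MOLM13 and of OCI-AML3 are biologic replicates by the study's account, while for MV4-11 this is not stated, so its p-values reflect the spread of the deposited libraries alone, which may be technical. MV4-11 control replicate 1 stood apart, with 10.3% of its counts from the mitochondrial genome against 5.60% to 6.68% in the other MV4-11 libraries. Of the myeloid markers, CD33, SPI1, CEBPA, LYZ and CSF3R were detected in every library, while CD68 stayed at or below 0.353 CPM in all of them. Levels are given in CPM, that is counts scaled to library size with TMM factors, as single libraries or as the mean ± SD. The words rose and fell are kept for changes that reached the minimum fold change used by the study and, in edgeR with Benjamini-Hochberg adjustment over every tested gene, an adjusted p under 0.05. In bulk RNA, fewer cells that express a gene and less of its RNA per cell cannot be told apart. CPM are relative to the other genes of a library, so a change in total RNA per cell would not show in them.

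MLL proteins contact unmethylated CG dinucleotides through their CXXC domain, so the promoters of 3 members are shown with each CG in capitals. MEIS1 and PBX3 are given because both fell under SNDX-50469 in all 3 lines. MEIS3 is given because it was higher with SNDX-50469 in MV4-11 and OCI-AML3. In MOLM13 MEIS3 was at 0 counts with SNDX-50469 and in controls. Each sequence runs 5′ to 3′ over 250 bases before and 50 after a start listed for the gene on GRCh38.p14. For MEIS1 and MEIS3 this start is the outer end of the gene. The PBX3 window lies inside the gene, which begins at 125747373, so its contents belong to an inner start.
MEIS1, chr2:66434875-66435174, plus strand: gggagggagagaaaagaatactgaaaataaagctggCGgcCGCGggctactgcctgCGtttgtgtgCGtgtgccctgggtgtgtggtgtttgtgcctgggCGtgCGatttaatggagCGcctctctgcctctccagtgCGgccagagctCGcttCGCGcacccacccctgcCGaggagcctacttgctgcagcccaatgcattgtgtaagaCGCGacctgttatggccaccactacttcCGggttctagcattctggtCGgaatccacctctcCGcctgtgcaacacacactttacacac
PBX3, chr9:125747933-125748232, plus strand: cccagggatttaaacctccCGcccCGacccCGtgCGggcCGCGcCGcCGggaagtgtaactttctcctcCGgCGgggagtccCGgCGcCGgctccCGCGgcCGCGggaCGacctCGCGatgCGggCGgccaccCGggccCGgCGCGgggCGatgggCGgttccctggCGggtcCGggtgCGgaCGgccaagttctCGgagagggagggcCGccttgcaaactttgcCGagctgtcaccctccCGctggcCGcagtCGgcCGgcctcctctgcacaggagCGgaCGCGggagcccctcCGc
MEIS3, chr19:47422184-47422483, minus strand: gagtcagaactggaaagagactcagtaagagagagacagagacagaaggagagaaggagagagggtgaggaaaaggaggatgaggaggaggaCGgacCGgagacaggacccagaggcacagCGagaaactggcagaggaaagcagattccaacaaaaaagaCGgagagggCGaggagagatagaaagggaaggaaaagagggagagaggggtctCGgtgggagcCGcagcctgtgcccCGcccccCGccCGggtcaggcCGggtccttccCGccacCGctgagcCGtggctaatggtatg
The PBX3 window held 43 CG, a number that only 4.98% of 35116 RefSeq promoters of this length reached. The MEIS1 window held 18 and the MEIS3 window 14, beside a median of 14 over all promoters. The site bound by MEIS and PKNOX proteins, TGACAG, was searched on both strands and occurred once in the PBX3 window and in neither of the other two, while 15.8% of all promoters held it. The PBX-HOX site TGATTNA, which can overlap TGACAG only in part, occurred in none of these 3 windows and in 9.74% of all promoters. All 7 genes had a promoter in the RefSeq table, with 9 entries in total. Of the entries not shown, PKNOX1 held 46 CG, a number that 2.89% of all promoters reached, although it passed with SNDX-50469 in no line. PBX4 held 35, MEIS2 35 and 16, a further MEIS3 entry 13 and PBX2 8. A link between the number of CG and the response was not tested. The genes lie on GRCh38.p14 at chromosome 2, 66435125 to 66573869 (MEIS1), chromosome 15, 36889204 to 37101311 (MEIS2), chromosome 19, 47403124 to 47422233 (MEIS3), chromosome 6, 32184733 to 32190202 (PBX2), chromosome 9, 125747373 to 125967377 (PBX3), chromosome 19, 19561713 to 19618687 (PBX4) and chromosome 21, 42974562 to 43033931 (PKNOX1).

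The first comparison addressed the effect of the Menin inhibitor on the family in MOLM13 cells. MEIS1 and PBX3 fell, while none of the 7 genes rose, where 13.3% of the 14360 tested genes passed, 8.06% higher and 5.24% lower. MEIS1 was at 6.79 and 6.42 CPM with SNDX-50469, against 38.2 and 43.4 CPM in the untreated controls. Both treated libraries lay far below both controls, and the remaining level was 16.2% of the control mean. The log2 fold-change of MEIS1 was -2.60 ± 0.09 (SE), which is a 6.05-fold decline at an edgeR adjusted p of 7.8e-33. PBX3, which encodes a joint partner of MEIS1 and HOXA9 on DNA, stood at 27.5 and 28.0 CPM with SNDX-50469, against 97.2 and 97.0 CPM in controls. Again the groups were far apart, with replicates nearly equal, and PBX3 fell by 1.77 ± 0.06 on the log2 scale to 28.6% of the control mean (edgeR adjusted p = 1.9e-34).

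The close paralogs of the genes that fell behaved otherwise in the same libraries. MEIS2 was at 23.0 and 23.3 CPM with SNDX-50469, against 23.5 and 24.3 CPM in controls, a log2 fold-change of -0.01 ± 0.08 whose sign depended on the scaling (0.04 with no scaling factors). PBX2 was at 90.8 and 84.7 CPM with SNDX-50469, against 77.3 and 84.6 CPM in controls, and its log2 fold-change of 0.14 ± 0.05 did not reach the fold limit (edgeR adjusted p = 0.034). Thus a decline passed for neither of these paralogs. PKNOX1 was at 21.8 and 21.3 CPM with SNDX-50469, against 26.4 and 24.1 CPM in controls, and at -0.20 ± 0.08 it too stayed within the fold limit. PBX4, the rarest PBX gene here, gave 20 and 18 counts with SNDX-50469, against 8 and 15 counts in controls, which made 0.61 ± 0.43 on the log2 scale (edgeR adjusted p = 0.29). MEIS3 was not detected at this depth in either group, with 0 counts in all 4 libraries, which allows up to 0.132 to 0.153 CPM by the limit of 3 counts for a library with none. The floor covers counting error only, since PCR reads are not independent molecules. MEIS3 entered the MOLM13 fit only because the combination group had counts for it. The median log2 fold-change of the 7 genes was -0.01, beside 0.01 over all tested genes.

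**Figure D1:**
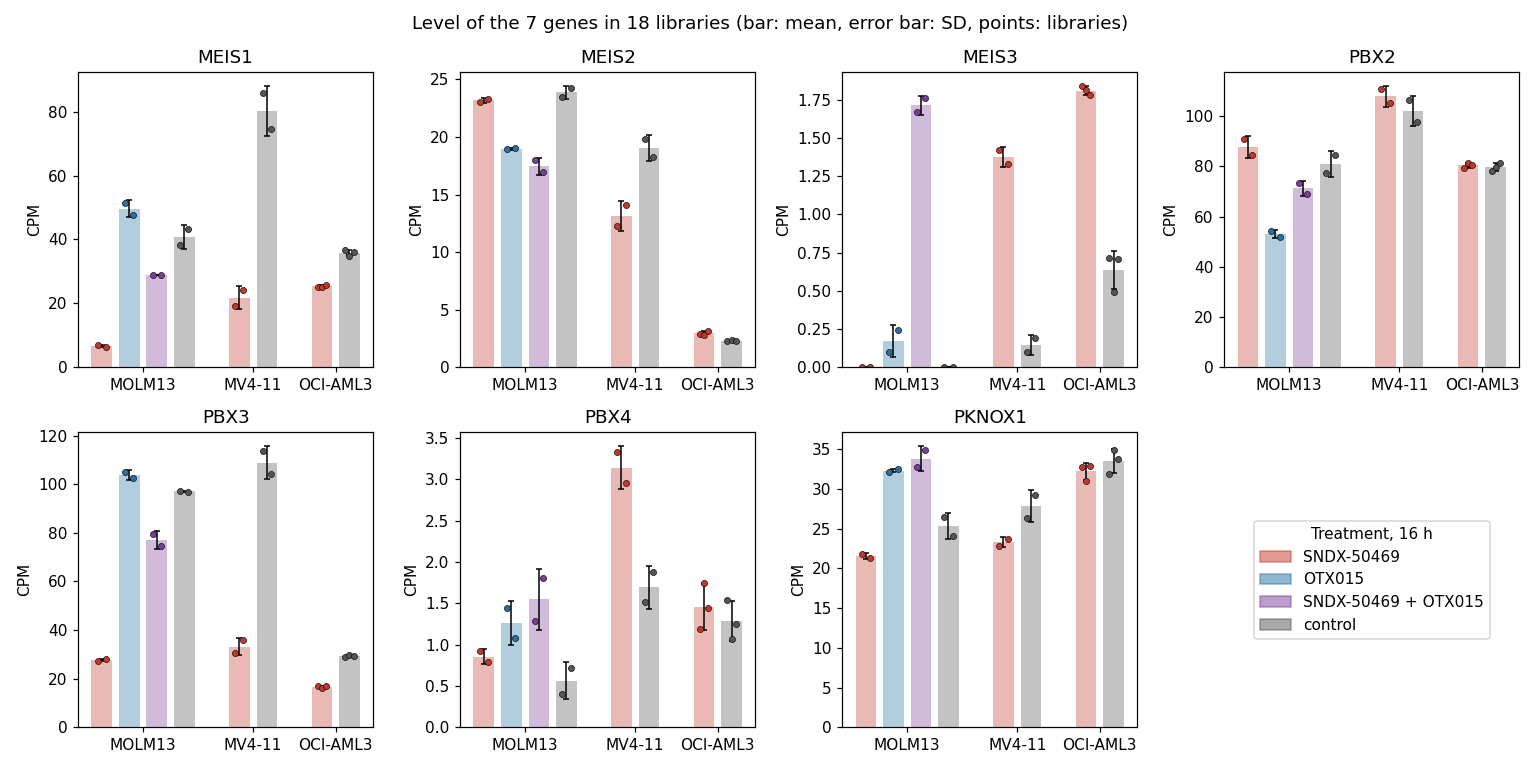
CPM of each of the 7 genes in all 18 libraries, by cell line and treatment; bars are group means, error bars the SD and points the libraries (n = 2 per group in MOLM13 and MV4-11, n = 3 in OCI-AML3). MEIS1 and PBX3 are lower with SNDX-50469 than in the controls of each line, PBX2 is close to its controls there, and MEIS3 is at 0 in MOLM13 cells with SNDX-50469 alone or with no agent.

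In MV4-11 cells the same comparison was made at 1000 nM. MEIS1, PBX3 and MEIS2 fell and PBX4 rose, where 20.7% of the 15486 tested genes passed, 11.4% higher and 9.34% lower. MEIS3 was higher with SNDX-50469 but is not counted among these, for the reason given below. MEIS1 was at 19.3 and 24.3 CPM with SNDX-50469, against 85.8 and 74.6 CPM in controls. PBX3 was at 30.7 and 35.9 CPM with SNDX-50469, against 114 and 104 CPM in controls. Neither gene had treated values near the controls, and the declines were -1.86 ± 0.17 for MEIS1 and -1.69 ± 0.16 for PBX3 on the log2 scale (edgeR adjusted p = 2.1e-06 and 2.6e-06). MEIS3 was almost silent in untreated MV4-11 cells. It gave 41 and 40 counts with SNDX-50469, against 2 and 6 counts in controls, which was 1.42 and 1.33 CPM against 0.101 and 0.191 CPM. The difference was 3.13 ± 0.53 on the log2 scale, and it ranged from 2.81 to 3.74 when each library was left out in turn. MEIS3 passed the filter on low counts in MV4-11 only through the treated libraries, so this value is a description and no p is given for it.

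MEIS2 and PBX4 moved less in MV4-11 cells. MEIS2 was at 12.2 and 14.1 CPM with SNDX-50469, against 19.9 and 18.2 CPM in controls (-0.51 ± 0.18 on the log2 scale, edgeR adjusted p = 0.049). PBX4 was at 3.33 and 2.96 CPM with SNDX-50469, against 1.51 and 1.88 CPM in controls (0.89 ± 0.29, edgeR adjusted p = 0.039). The groups did not overlap for either gene, yet both calls were lost with DESeq2. Both were also lost without control replicate 1 or without SNDX-50469 replicate 1. The call of MEIS2 was also lost without control replicate 2, with no filter on low counts (-0.51) and with no scaling factors (-0.47), and that of PBX4 also without SNDX-50469 replicate 2 and with limma-voom (0.77). PBX2, at 111 and 105 CPM with SNDX-50469 against 106 and 97.8 CPM in controls, and PKNOX1, at 22.9 and 23.7 CPM against 26.4 and 29.3 CPM, did not pass, with log2 fold-changes of 0.10 ± 0.15 and -0.24 ± 0.17. The median over the 7 genes was -0.24, beside 0.00 over all tested genes. With each MV4-11 library left out in turn, control replicate 1 with its higher mitochondrial share included, the log2 fold-change was -2.04 to -1.72 for MEIS1 and -1.81 to -1.60 for PBX3.

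In OCI-AML3 cells, whose lesion is mutant NPM1, MEIS1 and PBX3 fell as well, and MEIS3 and MEIS2 rose, 4 of 7 genes where 13.1% of the 16611 tested genes passed, 8.58% higher and 4.53% lower. MEIS1 was at 25.1, 25.2 and 25.8 CPM with SNDX-50469, against 36.6, 34.9 and 36.0 CPM in controls. PBX3 was at 16.9, 16.1 and 16.9 CPM with SNDX-50469, against 29.0, 29.7 and 29.4 CPM in controls. All treated libraries were below all controls for both genes, and the declines of -0.49 ± 0.04 and -0.82 ± 0.04 left 70.9% of the control mean for MEIS1 and 56.6% for PBX3 (edgeR adjusted p = 2.2e-07 and 3.9e-09). MEIS3 gave 107, 107 and 106 counts with SNDX-50469, against 37, 26 and 44 counts in controls. These were 1.84, 1.81 and 1.78 CPM against 0.713, 0.494 and 0.708 CPM, without overlap, and the rise was 1.50 ± 0.15 on the log2 scale (edgeR adjusted p = 6.5e-06). MEIS2, low in this line, was at 2.85, 2.78 and 3.17 CPM with SNDX-50469, against 2.24, 2.34 and 2.24 CPM in controls. Its rise of 0.38 ± 0.10 (edgeR adjusted p = 0.0075) was in the opposite direction to its change in MV4-11 and was lost with limma-voom after quantile normalization (0.24).

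For the remaining genes no change passed in OCI-AML3 cells. PBX2 was at 79.3 to 81.2 CPM with SNDX-50469, against 78.2 to 81.3 CPM in controls, a log2 fold-change of 0.02 ± 0.03. PKNOX1 was at 30.9 to 32.9 CPM with SNDX-50469, against 31.9 to 34.9 CPM in controls, at -0.05 ± 0.04, and PBX4 at 1.19 to 1.75 CPM against 1.06 to 1.54 CPM, at 0.19 ± 0.17. In all 3 genes the treated and control libraries overlapped. The direction of PKNOX1 turned with no scaling factors (0.00027). The median over the 7 genes was 0.02, beside 0.00 over all tested genes.

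MEIS3 has processed copies elsewhere in the genome, and their counts were followed because reads of near-identical copies may be split between them. MEIS3P1 held 0 to 1 counts in the MOLM13 libraries, 42 to 107 in MV4-11 and 137 to 225 in OCI-AML3, and MEIS3P2 held 0 counts in MOLM13, 2 to 13 in MV4-11 and 11 to 29 in OCI-AML3. MEIS3 levels in MV4-11 and OCI-AML3 are therefore uncertain to that extent, whereas in MOLM13 the copies were at or near 0. The PBX2 copy PBX2P1 held at most 17 counts, and the overlapping genes MEIS1-AS2 and PHF5AP1, the second of which lies within PBX4, at most 7 and 3 counts. The strand setting of the counting is not given, so reads of MEIS1 and MEIS1-AS2 could not be told apart.

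Differences in the response to SNDX-50469 between lines were tested as contrasts of the treatment effects in 1 fit of all 18 libraries. Any pair of these 3 contrasts shares the libraries of a line. The decline of MEIS1 was deepest in MOLM13, intermediate in MV4-11 and smallest in OCI-AML3, and each step passed. The MV4-11 response minus the MOLM13 response was 0.75 ± 0.15 for MEIS1 (edgeR adjusted p = 0.0013). MV4-11 cells had received the higher dose, so dose and line cannot be told apart here. The OCI-AML3 response minus the MOLM13 response, at equal doses, was 2.13 ± 0.14 (edgeR adjusted p = 2.8e-09), and the OCI-AML3 response minus the MV4-11 response was 1.38 ± 0.12 (edgeR adjusted p = 6.9e-08). For PBX3 the responses of MV4-11 and MOLM13 differed by 0.10 ± 0.10, which did not pass and changed sign with limma-voom (-0.06). The OCI-AML3 response of PBX3 was smaller than that of MOLM13 by 0.98 ± 0.10 and than that of MV4-11 by 0.89 ± 0.09 (edgeR adjusted p = 9.7e-07 and 1.0e-06).

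The response of MEIS2 in MV4-11 lay below that in MOLM13 by a log2 difference of -0.49 ± 0.12 (edgeR adjusted p = 0.0077), and the OCI-AML3 response minus the MV4-11 response was 0.90 ± 0.13 (edgeR adjusted p = 3.6e-05). For MEIS3 the OCI-AML3 response minus the MV4-11 response was -1.62 ± 0.47 (edgeR adjusted p = 0.017). This call was lost without MV4-11 control replicate 1 (-1.32). No difference with MOLM13 could be estimated for MEIS3, since its MOLM13 groups were at 0. Between MV4-11 and MOLM13, 1 of the 7 genes was higher and 1 lower, where 20.6% of 17597 tested genes passed (10.5% higher and 10.1% lower). Between OCI-AML3 and MOLM13, 2 of the 7 were higher, where 4.1% of the tested genes passed (2.6% higher and 1.49% lower). Between OCI-AML3 and MV4-11, 3 of the 7 were higher and 1 lower, where 23.8% of the tested genes passed (12.6% higher and 11.2% lower). PBX2, PBX4 and PKNOX1 passed in none of these contrasts, and signs of their differences between MV4-11 and MOLM13 turned when single libraries were left out.

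**Figure D2:**
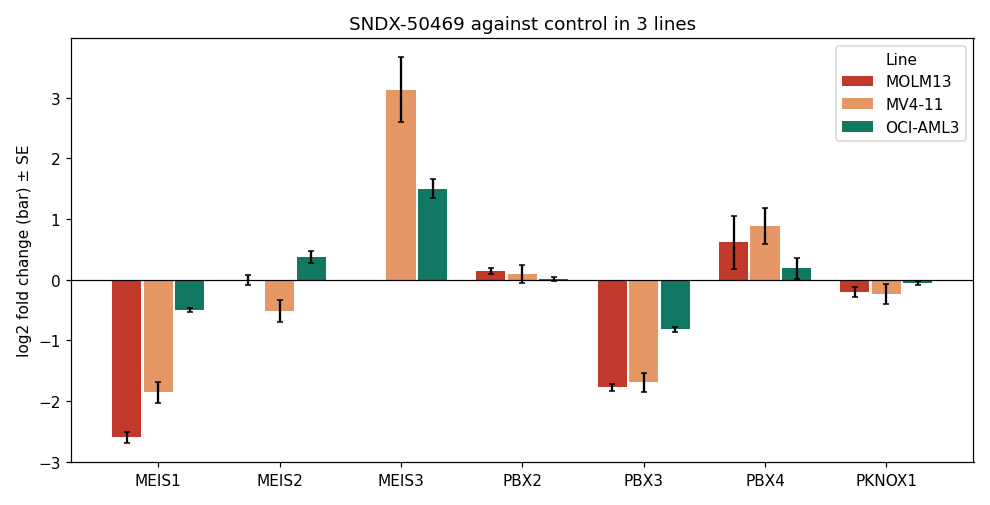
Log2 fold-change of SNDX-50469 over control for each gene in MOLM13 (500 nM), MV4-11 (1000 nM) and OCI-AML3 (500 nM); bars are edgeR estimates from the fit of each line and error bars the SE. MEIS1 reaches -2.60, -1.86 and -0.49 in this order of lines, MEIS3 has no bar in MOLM13 because all 4 libraries were at 0 counts, and PBX2 stays between 0.02 and 0.14.

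The next comparison asked what BET inhibition alone did to these genes in MOLM13 cells. OTX015 lowered PBX2 and raised PKNOX1 and PBX4, where 48.1% of the tested genes passed (23.5% higher and 24.7% lower). MEIS1 and PBX3 did not fall. These effects share the control libraries of the SNDX-50469 comparison. PBX2 was at 54.2 and 52.0 CPM with OTX015, against 77.3 and 84.6 CPM in controls (-0.58 ± 0.06 on the log2 scale, edgeR adjusted p = 1.2e-13). It was the lowest PBX2 level of the 8 groups, and the libraries did not overlap with those of any other group. PKNOX1 was at 32.1 and 32.5 CPM with OTX015, against 26.4 and 24.1 CPM in controls, at 0.38 ± 0.08 (edgeR adjusted p = 1.8e-05), a call lost without control replicate 2 (0.31).

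MEIS1 was at 51.5 and 47.7 CPM with OTX015, against 38.2 and 43.4 CPM in controls. Both treated libraries exceeded both controls, but the log2 fold-change of 0.31 ± 0.07 fell short of the fold limit (edgeR adjusted p = 9.0e-05). It exceeded that limit with no scaling factors (0.35), without control replicate 2 (0.40) and without OTX015 replicate 2 (0.37). PBX3 was at 105 and 102 CPM with OTX015, against 97.2 and 97.0 CPM in controls (0.12 ± 0.05). MEIS2 was at 18.9 and 19.02 CPM with OTX015, against 23.5 and 24.3 CPM in controls, and its -0.31 ± 0.09 also missed the fold limit, which it passed with all 18 libraries in 1 fit (-0.33) and without control replicate 1 (-0.33). PBX4 gave 29 and 22 counts with OTX015, against 8 and 15 counts in controls, at 1.17 ± 0.40 (edgeR adjusted p = 0.0097), and this call was lost with DESeq2, without control replicate 1 (0.83) and without OTX015 replicate 1 (0.94). MEIS3 gave 2 and 5 counts with OTX015, against 0 and 0 in controls. This amounts to at least 2.33-fold higher against a floor of 3 counts over the control group. The difference rested on few reads, and MEIS3 was in this fit only through the combination libraries. It is therefore a description, and no p is given for it. The median over the 7 genes was 0.31, beside 0.01 over all tested genes.

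The combination of both agents was compared with the controls and with each agent alone, and these comparisons share libraries with each other and with those above. With both agents, MEIS1 and PBX3 stayed much closer to their control levels than with SNDX-50469 alone. MEIS1 was at 29.0 and 29.0 CPM with both agents, against 38.2 and 43.4 CPM in controls, which left 71.1% of the control mean (-0.50 ± 0.07, edgeR adjusted p = 2.1e-08). PBX3 was at 79.7 and 74.6 CPM with both agents, against 97.2 and 97.0 CPM in controls, at -0.34 ± 0.05 (edgeR adjusted p = 9.1e-08). Both genes were thus lower than in controls without overlap, yet the call of PBX3 was lost with limma-voom (-0.27), with no scaling factors (-0.24) and without combination replicate 2 (-0.28).

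Set against SNDX-50469 alone, the combination libraries held 4.29-fold more MEIS1, at a log2 fold-change of 2.10 ± 0.10, and 2.71-fold more PBX3, at 1.44 ± 0.06 (edgeR adjusted p = 2.3e-28 and 1.3e-30). In this comparison PKNOX1 and PBX4 also passed as higher, and MEIS2 and PBX2 as lower. Of all tested genes 57% passed (27.9% higher and 29% lower). MEIS3 is not counted in comparisons with the combination, for the reason given below. Set against OTX015 alone, MEIS1 was lower with both agents by -0.81 ± 0.07 and PBX3 by -0.46 ± 0.05 (edgeR adjusted p = 4.4e-15 and 2.8e-11). PBX2 passed as higher, where 34.9% of all tested genes passed (18.4% higher and 16.5% lower). The sum of the single effects would be -2.29 for MEIS1 and -1.65 for PBX3, whereas -0.50 and -0.34 were measured. The interaction, that is the effect of SNDX-50469 in the presence of OTX015 minus its effect without, was 1.79 ± 0.12 for MEIS1 and 1.31 ± 0.08 for PBX3 (edgeR adjusted p = 3.4e-19 and 2.6e-21). It stayed between 1.70 and 1.87 for MEIS1 and between 1.27 and 1.37 for PBX3 when each of the 8 MOLM13 libraries was left out in turn. These 2 were the only members of the 7 with an interaction past both limits, where 24.2% of the tested genes had one (11.5% higher and 12.7% lower). PBX2 had an interaction of 0.25 ± 0.08 below the fold limit (edgeR adjusted p = 0.012), while MEIS2 (-0.14 ± 0.12), PKNOX1 (0.24 ± 0.11) and PBX4 (-0.34 ± 0.54) did not pass, and none could be estimated for MEIS3.

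MEIS3 was expressed in MOLM13 cells mainly with both agents. It gave 31 and 35 counts there (1.67 and 1.76 CPM), against 0 and 0 counts with SNDX-50469, 2 and 5 with OTX015, and 0 and 0 in controls. The combination libraries lay above both MV4-11 libraries and below all 3 OCI-AML3 libraries with SNDX-50469. The combination was at least 23.1-fold higher than controls and at least 25.4-fold higher than SNDX-50469 alone, each by a floor of 3 counts over the group at 0. Against OTX015 alone it was higher by 3.23 ± 0.52 on the log2 scale. Because MEIS3 passed the filter on low counts in MOLM13 only through the combination libraries, these values are a description and no p is given for them.

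Against controls, MEIS1, PBX3 and MEIS2 fell with both agents, and PKNOX1 and PBX4 rose. Of all tested genes 62.1% passed (31.2% higher and 30.9% lower). The median over the 7 genes, MEIS3 included, was -0.19 beside 0.02 over all. MEIS2 was at 17.96 and 16.9 CPM with both agents, against 23.5 and 24.3 CPM in controls, a decline of -0.46 ± 0.09 (edgeR adjusted p = 6.1e-06), and against OTX015 alone it differed by -0.15 ± 0.09, which did not pass. PKNOX1 was at 32.7 and 34.9 CPM with both agents, against 26.4 and 24.1 CPM in controls (0.42 ± 0.08, edgeR adjusted p = 2.5e-06), a level next to that with OTX015 alone, from which it differed by 0.04 ± 0.07. PBX2 was at 73.3 and 69.1 CPM with both agents, between its levels with OTX015 alone and in controls. Its log2 fold-change was -0.19 ± 0.06 against controls, below the fold limit, and 0.39 ± 0.06 against OTX015 alone (edgeR adjusted p = 5.9e-08). Against SNDX-50469 alone it was -0.34 ± 0.06, a call lost in the 1 fit of all 18 libraries (-0.30), with limma-voom (-0.31), with no scaling factors (-0.29) and without combination replicate 2 or SNDX-50469 replicate 1 (-0.28 and -0.29). PBX4 gave 24 and 36 counts with both agents, against 8 and 15 counts in controls (1.44 ± 0.39, edgeR adjusted p = 0.00088). Its rise over SNDX-50469 alone (0.82 ± 0.35) was lost with DESeq2 and without combination replicate 2 or either SNDX-50469 library (0.56, 0.93 and 0.72).

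**Figure D3:**
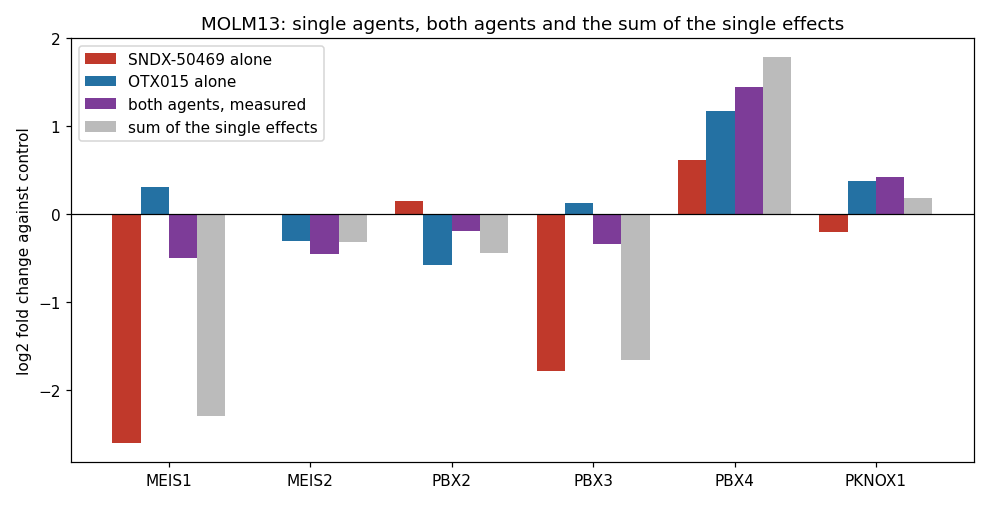
Log2 fold-change against control in MOLM13 for SNDX-50469 alone, OTX015 alone and both agents (edgeR estimates), beside the arithmetic sum of the single effects, for the 6 genes with counts in the controls. The measured combination lies at -0.50 for MEIS1 and -0.34 for PBX3, far from the sums of -2.29 and -1.65, while for MEIS2 the measured value of -0.46 is close to the sum of -0.32.

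Myeloid markers moved with the MOLM13 groups as well. The summed level of 10 such markers was 1730 to 1769 CPM with SNDX-50469, 827 to 873 CPM with OTX015 and 1293 to 1294 CPM with both agents, against 1479 to 1495 CPM in controls, and at most 1 of the 10 was at 0 in a library. Of the 9 tested, 4 rose and 0 fell with SNDX-50469, where 8.06% of all tested genes rose and 5.24% fell. With OTX015, 1 rose and 7 fell, where 23.5% of all rose and 24.7% fell. With both agents, 2 rose and 6 fell, where 31.2% of all rose and 30.9% fell. The 7 lymphoid markers summed to 9.51 to 10.2 CPM with SNDX-50469, 3.59 to 4.22 CPM with OTX015 and 4.09 to 4.92 CPM with both, against 9.81 to 9.90 CPM in controls. The erythroid and megakaryocyte markers stayed at or below 0.336 CPM in every MOLM13 library, with HBB, HBG1 and PF4 at 0 in all. The epithelial and stromal markers summed to 2.96 to 3.50 CPM with both agents, against 0.649 to 1.59 CPM in the other MOLM13 groups. In MV4-11 the myeloid sum was 3242 to 3471 CPM with SNDX-50469, against 2804 to 2863 CPM in controls, and in OCI-AML3 it was 664 to 670 CPM with SNDX-50469, against 756 to 871 CPM in controls. Outside the myeloid list no sum exceeded 10.2 CPM in any of the 18 libraries. The part of these markers in the changes of the MEIS and PBX genes was not tested.

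MEIS1 and MEIS2 are paralogs with the same kinds of partner, as are PBX3 and PBX2, and the balance within each pair was followed library by library as a ratio of CPM per kb of merged exon length. These ratios restate the levels above, carry no test of their own, and need no scaling between libraries. The length covers every annotated exon of a gene rather than the transcript expressed, so whether a ratio lies above or below 1 depends on it. The change of a ratio between groups does not depend on that length. MEIS1 over MEIS2 was 0.299 and 0.320 in MOLM13 cells with SNDX-50469, against 1.77 and 1.94 in controls. MEIS2 was thus the more abundant transcript per length only in the MOLM13 libraries with SNDX-50469 alone, and in the other 16 libraries the ratio lay above 1. It was 2.73 and 2.96 with OTX015 and 1.76 and 1.86 with both agents. In MV4-11 it was 1.72 and 1.88 with SNDX-50469, against 4.45 and 4.70 in controls, and in OCI-AML3 8.87 to 9.87 with SNDX-50469, against 16.3 to 17.8 in controls.

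PBX3 over PBX2 was 0.270 and 0.295 in MOLM13 cells with SNDX-50469, 1.73 and 1.75 with OTX015 and 0.961 and 0.968 with both agents, against 1.02 and 1.12 in controls. By these lengths PBX3 was about as abundant as PBX2 in untreated MOLM13 cells, clearly below it with SNDX-50469 and above it with OTX015. In MV4-11 the ratio was 0.246 and 0.304 with SNDX-50469, against 0.947 and 0.951 in controls. In OCI-AML3 PBX2 was the more abundant transcript in every library, with ratios of 0.176 to 0.190 with SNDX-50469, against 0.322 to 0.333 in controls.

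**Figure D4:**
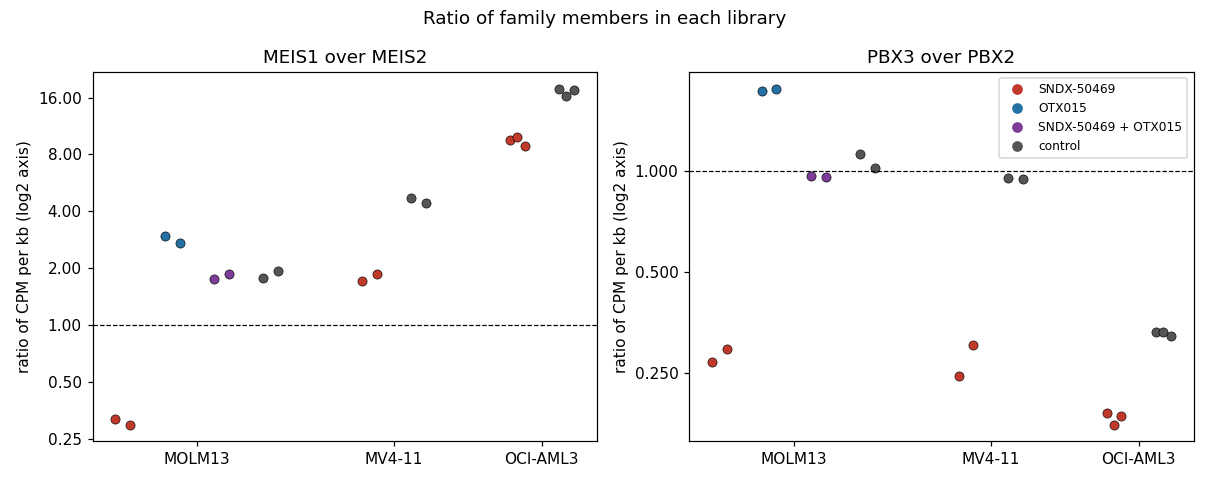
Ratio of MEIS1 over MEIS2 (left) and of PBX3 over PBX2 (right), each as CPM per kb on a log2 axis, in every library by line and treatment; points are libraries and the dashed line marks a ratio of 1. The MOLM13 points with SNDX-50469 alone are at 0.299 and 0.320 on the left, the only ones below 1, and all 3 lines show lower ratios on the right with SNDX-50469 than in controls.

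Between untreated cells of the 3 lines, 5 of the 7 genes passed in each contrast, MEIS3 included. This is near the share over all tested genes, so the count is not particular to this family. Between MV4-11 and MOLM13, 4 were higher and 1 lower, where 63.5% of the tested genes passed (34.2% higher and 29.3% lower). MEIS3, among the higher, gave 2 and 6 counts in MV4-11 and 0 in MOLM13, so its place in this count is a description. Between OCI-AML3 and MOLM13, 3 were higher and 2 lower, where 64.2% passed (33.7% higher and 30.5% lower). Between OCI-AML3 and MV4-11, 1 was higher and 4 lower, where 67.4% passed (33.1% higher and 34.3% lower). MEIS1 averaged 80.2 ± 7.87 CPM in MV4-11 (SD, n = 2), 35.9 ± 0.876 CPM in OCI-AML3 (n = 3) and 40.8 ± 3.68 CPM in MOLM13 (n = 2). MV4-11 exceeded MOLM13 by 0.97 ± 0.09 on the log2 scale (edgeR adjusted p = 1.0e-08), while OCI-AML3 and MOLM13 differed by -0.19 ± 0.08, which did not pass and turned to 0.01 with no scaling factors. MEIS2 averaged 19.04 ± 1.16 CPM in MV4-11 and 2.27 ± 0.0577 CPM in OCI-AML3, against 23.9 ± 0.570 CPM in MOLM13. OCI-AML3 was thus 10.5-fold below MOLM13 for MEIS2 (-3.39 ± 0.09, edgeR adjusted p = 1.4e-17), and MV4-11 was lower by a log2 fold-change of -0.33 ± 0.09, a call lost with DESeq2, with its size factors, with no scaling factors (-0.19) and without MOLM13 control replicate 2 or MV4-11 control replicate 2.

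PBX3 averaged 109 ± 6.82 CPM in MV4-11 and 29.4 ± 0.348 CPM in OCI-AML3, against 97.1 ± 0.138 CPM in MOLM13. OCI-AML3 lay 3.30-fold below MOLM13 (-1.72 ± 0.06, edgeR adjusted p = 2.9e-15), while MV4-11 minus MOLM13 was 0.16 ± 0.07, below the fold limit in this fit but past it with limma-voom (0.33). MEIS3 was expressed in untreated OCI-AML3, at 0.638 ± 0.125 CPM, and barely in MV4-11, at 0.146 ± 0.0638 CPM, and it was at 0 counts in MOLM13. By the floor of 3 counts over the MOLM13 group, OCI-AML3 was at least 8.64-fold and MV4-11 at least 2.10-fold higher. The MV4-11 value rested on few reads, so it is a description and no p is given for it. PBX4 was higher in MV4-11 than in MOLM13 (1.59 ± 0.35, edgeR adjusted p = 0.00047) and higher in OCI-AML3 than in MOLM13 (1.17 ± 0.32, edgeR adjusted p = 0.0031), the second lost without MOLM13 control replicate 1 (0.84). PKNOX1 was higher in OCI-AML3 than in MOLM13 (0.41 ± 0.07, edgeR adjusted p = 3.2e-05). PBX2 was higher in MV4-11 than in MOLM13 (0.33 ± 0.07, edgeR adjusted p = 0.00017), but that call was lost with no filter on low counts and without either control replicate 1, and OCI-AML3 and MOLM13 differed by -0.02 ± 0.06. Without MV4-11 control replicate 2, 3 of the 7 genes passed between MV4-11 and MOLM13. MV4-11 cells grew in IMDM and the other lines in RPMI, so line and medium cannot be told apart in contrasts with MV4-11.

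Over all 8 groups, the group means of MEIS1 spanned 12.1-fold, those of MEIS2 10.5-fold, PBX3 6.54-fold, PBX4 5.56-fold, PBX2 2.03-fold and PKNOX1 1.57-fold. MEIS1 was highest in untreated MV4-11, followed by MOLM13 with OTX015, untreated MOLM13, untreated OCI-AML3, MOLM13 with both agents, OCI-AML3 with SNDX-50469 and MV4-11 with SNDX-50469, and lowest in MOLM13 with SNDX-50469. No neighbours in that order had overlapping libraries. PBX3 was highest in untreated MV4-11 and in MOLM13 with OTX015, which overlapped, followed by untreated MOLM13, MOLM13 with both agents, MV4-11 with SNDX-50469, untreated OCI-AML3 and MOLM13 with SNDX-50469, and it was lowest in OCI-AML3 with SNDX-50469. After SNDX-50469 the PBX3 means of the MLL-rearranged lines, 33.2 CPM in MV4-11 and 27.8 CPM in MOLM13, lay on either side of the 29.4 CPM of untreated OCI-AML3 cells. For MEIS3 the highest levels were 1.81 ± 0.0303 CPM in OCI-AML3 with SNDX-50469, 1.71 ± 0.0638 CPM in MOLM13 with both agents and 1.37 ± 0.0643 CPM in MV4-11 with SNDX-50469. PKNOX1 had its 4 highest groups in mutual overlap of neighbours, between 32.2 and 33.8 CPM, and PBX4 overlapped between neighbours in 4 of its 7 steps.

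HOX genes, the partners of these proteins on DNA, were counted over the 39 genes of the HOX clusters. With SNDX-50469, 1 rose and 3 fell of 10 tested in MOLM13, 0 rose and 1 fell of 12 tested in MV4-11, and 10 rose and 0 fell of 22 tested in OCI-AML3. The shares over all tested genes were 8.06% higher and 5.24% lower for MOLM13, 11.4% higher and 9.34% lower for MV4-11, and 8.58% higher and 4.53% lower for OCI-AML3. HOXA9, the best known partner of MEIS1 in leukemia, fell in MOLM13 (-0.40 ± 0.07) and was the gene that fell in MV4-11 (-0.96 ± 0.16). HOXA7 (-1.37 ± 0.27) and HOXA11 (-0.76 ± 0.10) fell in MOLM13, where HOXA13 rose (0.50 ± 0.10), and HOXB9 (1.24 ± 0.06) and HOXA6 (1.06 ± 0.15) were among those that rose in OCI-AML3. The list's median log2 fold-change with SNDX-50469 was -0.35 in MOLM13, -0.24 in MV4-11 and 0.35 in OCI-AML3, against 0.01 or less over all tested genes of each fit. In MOLM13, 6 of the 10 tested rose and 2 fell with OTX015, where 23.5% of all tested genes rose and 24.7% fell, and 8 rose and 2 fell with both agents, where 31.2% rose and 30.9% fell. The interaction was positive for 5 of the 10 tested HOX genes and negative for 0, where 11.5% and 12.7% of all tested genes had one in these directions, with HOXA10 at 1.10 ± 0.10 and HOXA5 at 1.11 ± 0.28, and the median of 0.37 stood beside -0.01 over all tested genes.

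Of the 6 genes listed as binding partners of MEIS and PBX proteins or as coactivators of MEIS1, PBXIP1, which encodes a PBX-binding protein that hinders the PBX-HOX complex from binding DNA, rose with SNDX-50469 in all 3 lines. Its log2 fold-change was 0.47 ± 0.06 in MOLM13, 0.70 ± 0.15 in MV4-11 and 0.36 ± 0.03 in OCI-AML3 (edgeR adjusted p = 2.5e-08, 0.0032 and 2.9e-06). With both agents in MOLM13 it was 1.29 ± 0.06 above controls, with an interaction of 0.63 ± 0.09. In the list 2 rose in MOLM13, 2 in MV4-11 and 1 in OCI-AML3 with SNDX-50469, where 8.06%, 11.4% and 8.58% of all tested genes rose. With OTX015 3 rose and with both agents 5, where 23.5% and 31.2% of all tested genes rose. None fell in these 5 comparisons. CREBBP, a histone acetyltransferase gene, rose with each agent in MOLM13 (0.43 ± 0.05 with SNDX-50469 and 0.47 ± 0.05 with OTX015) and by 1.17 ± 0.05 with both. The list medians were 0.06, 0.22 and 0.02 in MOLM13, MV4-11 and OCI-AML3 with SNDX-50469, and 0.33 and 0.71 with OTX015 and with both agents.

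Among 10 other TALE genes, 4 or 5 passed the filter on low counts in each line. The Iroquois gene IRX5 fell with SNDX-50469 in MOLM13 (-0.43 ± 0.09) and in MV4-11 (-1.01 ± 0.18), and IRX3 fell in MV4-11 (-0.61 ± 0.15). MKX was the gene that fell in OCI-AML3 (-0.38 ± 0.03), and none rose. Of all tested genes 5.24% fell in MOLM13, 9.34% in MV4-11 and 4.53% in OCI-AML3. With both agents TGIF1, a repressor of TGF-beta signalling, rose (0.78 ± 0.07) and its paralog TGIF2 fell (-1.28 ± 0.06). The interaction was higher for 3 of the 4 tested and lower for 1, with IRX3 at 0.95 ± 0.06. Of all tested genes 11.5% had a higher and 12.7% a lower interaction. With SNDX-50469 the list medians were -0.16 in MOLM13, -0.35 in MV4-11 and -0.24 in OCI-AML3.

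A list of 17 genes described elsewhere as targets of MEIS1 or HOXA9 was counted in the same way. With SNDX-50469, 1 rose and 2 fell of 12 tested in MOLM13, where 8.06% of all tested genes rose and 5.24% fell. In MV4-11, 2 rose and 4 fell of 14 tested, where 11.4% of all rose and 9.34% fell. In OCI-AML3, 1 rose and 4 fell of 15 tested, where 8.58% of all rose and 4.53% fell. The list medians were -0.05, -0.15 and -0.12 in this order of lines. CDK6, which encodes a cell cycle kinase, fell in all 3 lines (-0.46 ± 0.04 in MOLM13, -1.70 ± 0.20 in MV4-11 and -0.43 ± 0.04 in OCI-AML3). BCL2, the apoptosis inhibitor, fell in MV4-11 (-2.12 ± 0.16) and OCI-AML3 (-0.90 ± 0.03). FLT3, a receptor tyrosine kinase, fell in MOLM13 (-0.72 ± 0.04) and OCI-AML3 (-1.05 ± 0.04). In MV4-11 and OCI-AML3 only the 4 largest changes of the list are named, so a gene not named there may also have fallen. The genes that rose were PIM1 in MOLM13 (0.39 ± 0.07) and OCI-AML3 (0.96 ± 0.07), and EPAS1 (1.50 ± 0.31) and IGF1 (1.92 ± 0.32) in MV4-11. With both agents in MOLM13, 6 of the 12 rose and 3 fell, where 31.2% of all tested genes rose and 30.9% fell, among them PIM1 (2.14 ± 0.06), HIF1A (1.33 ± 0.06) and EPAS1 (4.04 ± 0.29) as higher and BCL2 (-1.24 ± 0.05) as lower. The interaction was higher for 4 of the 12 and lower for 1, where 11.5% and 12.7% of all tested genes passed. LMO2, which encodes a transcriptional bridging protein, was at 0.85 ± 0.06 and BCL2, the lower one, at -0.63 ± 0.07.

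Genes whose log2 levels followed each member most closely over the 8 group means were looked up as a description, since groups of the same line share its background. For MEIS1 they were TEC (Pearson's r = 0.94), MARCHF7 (0.92) and USP12 (0.91), and for PBX3 MELTF (0.98), JMJD1C-AS1 (0.96) and FOXP1 (0.95). For MEIS3 they were PLXNB3 (0.98), SMARCD3 (0.96) and TRABD-AS1 (0.95). The closest to MEIS2 was TNFRSF10A-DT (1.00), to PBX2 LILRB4 (0.99), to PBX4 NUTM2D (0.98) and to PKNOX1 CHTOP (0.99). Among the members, MEIS1 and PBX3 had r = 0.65 over these 8 points, PBX3 and MEIS2 0.69, and MEIS1 and MEIS2 -0.04.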

How the data were processed

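The table that the authors deposited holds raw read counts of 58037 Ensembl genes in the 18 libraries, without normalization, and 0 of its columns were left unused. The submitters' processing notes name STAR and the build hg38 without versions, while the study's methods describe TopHat2 and Cufflinks2, so the aligner is unsure. The counting program, strand setting and annotation were not given in the sources used here. Gene symbols could be matched to 40894 of the IDs. The tests used the quasi-likelihood functions glmQLFit and glmQLFTest of edgeR 4.0.16 in R 4.3.3, after filterByExpr and TMM scaling, in a model of group means. MOLM13, MV4-11 and OCI-AML3 libraries were fitted apart, and contrasts between lines came from 1 fit of all 18. The fold limit of 1.25 is that of the study, which used limma. The SE is the log2 fold-change divided by the square root of the F statistic. CPM used TMM factors of all libraries, which differed from those within a line by at most 0.0261 on the log2 scale.

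The limit for a library with 0 counts was 3 counts, or 0.0482 to 0.161 CPM. Replicates differed by more than sampling noise, with a chi-square per degree of freedom of 1.46 to 43.9 over genes with at least 10 counts. Replicate numbers of MV4-11 follow the titles (1 and 2), since descriptions give 2 and 3. Merged exon lengths came from a GENCODE annotation of another build and served as lengths only, MEIS1 10942, MEIS2 11897, PBX2 4368 and PBX3 4904 bases. Promoters and positions are from RefSeq. The levels most like a member were found by Pearson correlation of log2(CPM + 0.5) over genes of at least 1 CPM in a group. The 7 genes and the gene lists were chosen with earlier results of these data known, and from each list at most 4 called genes with the largest changes were named per comparison. The fits were tested on simulated data. Alternatives were DESeq2 1.42.0, RLE factors, no scaling factors, no filter, a replicate block, limma-voom (limma 3.58.1) with quantile normalization, 1 fit of all libraries and leaving out each library in turn.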

Additional observations from a re-analysis of the deposited data

Results flagged for a closer look

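The effect of SNDX-50469 on MEIS1 and PBX3 differed between MOLM13 cells with and without OTX015, by an interaction of 1.79 for MEIS1 and 1.31 for PBX3 on the log2 scale, each past both limits of edgeR's test. In each of the combination libraries both genes were above both libraries with SNDX-50469 alone.

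The response to SNDX-50469 also differed between lines in tests of the difference itself. For MEIS1 the MV4-11 response minus the MOLM13 response was 0.75, the OCI-AML3 response minus the MOLM13 response 2.13 and the OCI-AML3 response minus the MV4-11 response 1.38. For PBX3 the OCI-AML3 response exceeded that of MOLM13 by 0.98 and that of MV4-11 by 0.89, where a positive difference stands for a smaller decline. For MEIS2 the MV4-11 response minus the MOLM13 response was -0.49 and the OCI-AML3 response minus the MV4-11 response 0.90. For MEIS3 the OCI-AML3 response minus the MV4-11 response was -1.62, a call that was lost without MV4-11 control replicate 1 (-1.32). Doses differed between MV4-11 (1000 nM) and the other lines (500 nM), so dose and line cannot be told apart in contrasts with MV4-11.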

How the results depend on the processing

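Over the 7 genes, 1074 of the values under alternatives kept their direction and side of the limits, 45 lost a call, 9 gained one and 20 changed sign, and of the counts 334 stayed within 1.5 times and 10 did not. MEIS1 and PBX3 kept their calls under SNDX-50469 in all 3 lines, and their interactions, under every alternative run. With no scaling factors the sign changed for MEIS2 with SNDX-50469 in MOLM13 (0.037), PKNOX1 in OCI-AML3 (0.00027), and untreated OCI-AML3 minus MOLM13 for MEIS1 (0.011) and PBX2 (0.17). PBX2 in that contrast was also positive with limma-voom (0.015) and without the filter (0.035). With limma-voom the MV4-11 minus MOLM13 responses were 0.000399 for PBX2 and -0.056 for PBX3. None of these was called. With libraries left out in turn, MEIS2 with SNDX-50469 in MOLM13 ranged from -0.033 to 0.0048, and PKNOX1 with both agents against OTX015 from -0.011 to 0.077. The MV4-11 minus MOLM13 responses then ranged from -0.099 to 0.034 for PBX2, -0.020 to 0.21 for PBX3, -0.20 to 0.62 for PBX4 and -0.0998 to 0.055 for PKNOX1, and untreated OCI-AML3 minus MOLM13 from -0.080 to 0.053 for PBX2.

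In MV4-11, DESeq2 called 3 of the 7 genes in place of 5, with MEIS3 included in both counts. Of all genes 3208 were called there, 5934 with all 18 libraries in 1 fit, and 1637 to 3340 with libraries left out (1637 without SNDX-50469 replicate 1, 1798 without control replicate 1). The OCI-AML3 minus MOLM13 response called 721 genes, and 462 to 684 with libraries left out. Untreated MV4-11 against MOLM13 called 5 of the 7 genes, and 3 to 4 with libraries left out. The causes of these shifts were not tested. Correlations of deviations between same-numbered libraries were -0.052 to 0.12. In MV4-11 they were 0.115. With 2 libraries per group the value between unlike numbers is the negative of this by arithmetic, so it adds no contrast. Whether replicate numbers pair the samples is therefore not settled. With a replicate block MEIS1 stood at -2.60, -1.86 and -0.49 in MOLM13, MV4-11 and OCI-AML3. No call of the 7 genes changed with the block, and 4029 genes were called in MV4-11, against 3208 without it. Depth limited MEIS3 and PBX4 most, which held at most 107 and 103 counts in a library.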
